A study of Mus musculus with 26 samples.

Results

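Leukocyte marker genes were followed in RNA from sorted endothelial cells, as a measure of how much leukocyte RNA, or how much expression of these genes by the sorted cells themselves, each preparation held. The 9 genes were Ptprc, Lcp2, Prf1, Cd247, Tbx21, Ikzf1, Cd79b, Cd68 and Mpo. They were chosen by name, and every probe set (a small group of array probes summarised as 1 value) whose only gene symbol was 1 of these names was taken. That gave 114 probe sets, covering 9 of 5109 genes that have at least 1 unshared probe set. The array annotation assigned 28 probe sets to Ptprc, 19 to Lcp2, 4 to Prf1, 11 to Cd247, 7 to Tbx21, 12 to Ikzf1, 8 to Cd79b, 8 to Cd68 and 17 to Mpo.

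The series asked what interferon gamma (IFNγ) does to the endothelium of tumours in living mice. The 26 arrays formed 9 groups, all from female mice. MCA313 tumours were grown in transgenic mice whose IFNγ receptor is restricted to endothelial cells (PIG x Pdgfb-Cre x IFNγ-del), and were sampled without induction (3 arrays) or after tumour cells had made IFNγ on induction, at 24 h (2 arrays) and at 48 h (2 arrays). The J558L tumours were grown in Rag-/- mice with the IFNγ receptor on all cells. Their tumour cells were induced to make an IFNγ-GFP fusion, and endothelium was taken from the tumour (2 arrays at 0 h, 3 at 24 h) and from the kidney (3 arrays at each time). 16.113 tumours, also in Rag-/- mice, were sampled 120 h after transfer of tumour-specific T cells that could make IFNγ (IFNγ+/+, competent, 3 arrays) or could not (IFNγ-/-, deficient, 5 arrays). Mice were 4 to 6 months old, or 3 to 4 months for 16.113, and tumours measured about 1 cm. Rag-/- mice lack mature T and B cells but keep their natural killer and myeloid cells, so in the 16.113 groups the transferred cells were the only T cells given, and both groups received them. Sorting for CD31 and CD146 gave 5000 to 15000 cells per preparation, and about 500 pg of RNA was amplified over 12 cycles. The labels number the replicates without saying whether each came from its own mouse, so p-values measure the spread between these preparations only. In such bulk RNA, fewer cells of a type and less RNA per cell cannot be told apart.

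Leukocytes can enter an endothelial sort as carried-over or attached cells, and some express CD31 themselves. Ptprc encodes CD45, the phosphatase on the surface of nearly all leukocytes, and Lcp2 encodes SLP-76, a scaffold that links antigen and Fc receptors to calcium signalling. Prf1 encodes perforin, the pore-forming protein of cytotoxic T and natural killer cells, Cd247 the zeta chain of their receptors, and Tbx21 the transcription factor T-bet, which is itself induced by IFNγ in T cells. Ikzf1 encodes Ikaros, a lymphoid transcription factor, Cd79b a subunit of the B cell receptor, Cd68 a lysosomal protein abundant in macrophages, and Mpo the myeloperoxidase of neutrophil granules.

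Proximal promoters are shown for the 3 genes that the results turn on, to let their sequences be set beside the values. The windows come from RefSeq on GRCm38.p6, are 300 bases long and span the transcription start. Capitals mark the letters AGGAAG or, on the other strand, CTTCCT, searched on both strands, a core read by ETS-family factors, which act in both leukocytes and endothelium. The Lcp2 window is chr11:34046678-34046977 (plus strand), the Prf1 window chr10:61297586-61297885 (plus strand) and the Tbx21 window chr11:97115282-97115581 (minus strand).
Lcp2: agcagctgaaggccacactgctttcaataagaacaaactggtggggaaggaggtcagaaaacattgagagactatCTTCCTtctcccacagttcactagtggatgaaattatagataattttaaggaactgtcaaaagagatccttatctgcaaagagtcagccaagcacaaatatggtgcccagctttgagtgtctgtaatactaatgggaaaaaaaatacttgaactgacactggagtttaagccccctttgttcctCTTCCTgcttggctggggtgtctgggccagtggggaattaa
Prf1: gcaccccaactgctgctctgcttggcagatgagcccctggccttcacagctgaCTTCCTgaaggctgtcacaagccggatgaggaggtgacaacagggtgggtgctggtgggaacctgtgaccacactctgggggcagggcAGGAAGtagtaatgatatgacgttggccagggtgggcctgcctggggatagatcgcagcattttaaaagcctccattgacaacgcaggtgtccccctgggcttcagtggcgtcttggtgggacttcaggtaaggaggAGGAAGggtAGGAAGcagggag
Tbx21: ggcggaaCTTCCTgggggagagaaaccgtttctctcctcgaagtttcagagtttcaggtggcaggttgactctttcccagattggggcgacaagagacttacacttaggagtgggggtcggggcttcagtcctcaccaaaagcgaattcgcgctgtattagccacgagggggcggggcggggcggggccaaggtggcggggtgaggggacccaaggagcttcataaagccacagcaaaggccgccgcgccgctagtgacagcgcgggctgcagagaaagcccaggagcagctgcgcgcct
The Prf1 window held 4 such cores, the Lcp2 window 2 and the Tbx21 window 1. Promoter windows were found for 8 of the 9 genes, 10 windows in all (those of Ptprc overlap each other), and 8 of the 10 held a core, against 35.4% of 32817 promoters of the same length. A match describes letters, not binding, and a missing match says only that the letters are not in that window.

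The deposited values are log2 expression. Exact values recurred between arrays within each of 4 sets (MCA313, J558L tumour, J558L kidney and 16.113; 5.4% to 37.4% of values) and almost never between sets (at most 0.00458%), so each set was taken as its own normalization. The median of an array lay between 5.78 and 5.88 for MCA313, 6.42 and 6.46 for J558L tumour, 6.33 and 6.4 for kidney and 5.62 and 5.79 for 16.113. Levels were therefore tested only within a set, and across sets only ranks within each array are given, side by side. The values carry no detection call, so the array median served as the mark for a low probe set. The sorting marker Pecam1 (CD31) stood at group means of 13.51 to 13.95. Replicates of a group correlated at 0.912 or more across probe sets except in the 16.113 competent group, where replicates 1, 2 and 3 correlated at 0.847 to 0.889. Called changes in 16.113 are therefore also given without replicates 2 and 3 of that group, the pair with the lowest mean correlation. That leaves 1 competent array, which has no spread of its own, so only the size of the change is given. With all arrays kept, the gene fit called Tbx21 there, and Prf1 only in some alternative fits. It called none of the other 7 of the 9 genes.

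Few of these probe sets were above the array median on every array. Among the 114, 78 exceeded the array median in at least 2 arrays and were tested, as did 39400 of all 53857 probe sets with a single gene symbol. For the counts that follow, the share over all probe sets was not computed, so they describe these genes only. Of the probe sets above the array median on all 26 arrays, Ptprc had 3 of 28, Cd247 2 of 11, Ikzf1 1 of 12, Cd79b 1 of 8 and Cd68 4 of 8, while Prf1, Tbx21 and Mpo had 0. Lcp2 had 7 of 19. At the other end, 9 of 17 Mpo probe sets and 5 of 12 Ikzf1 probe sets were above the median on no array.

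**Figure D1:**
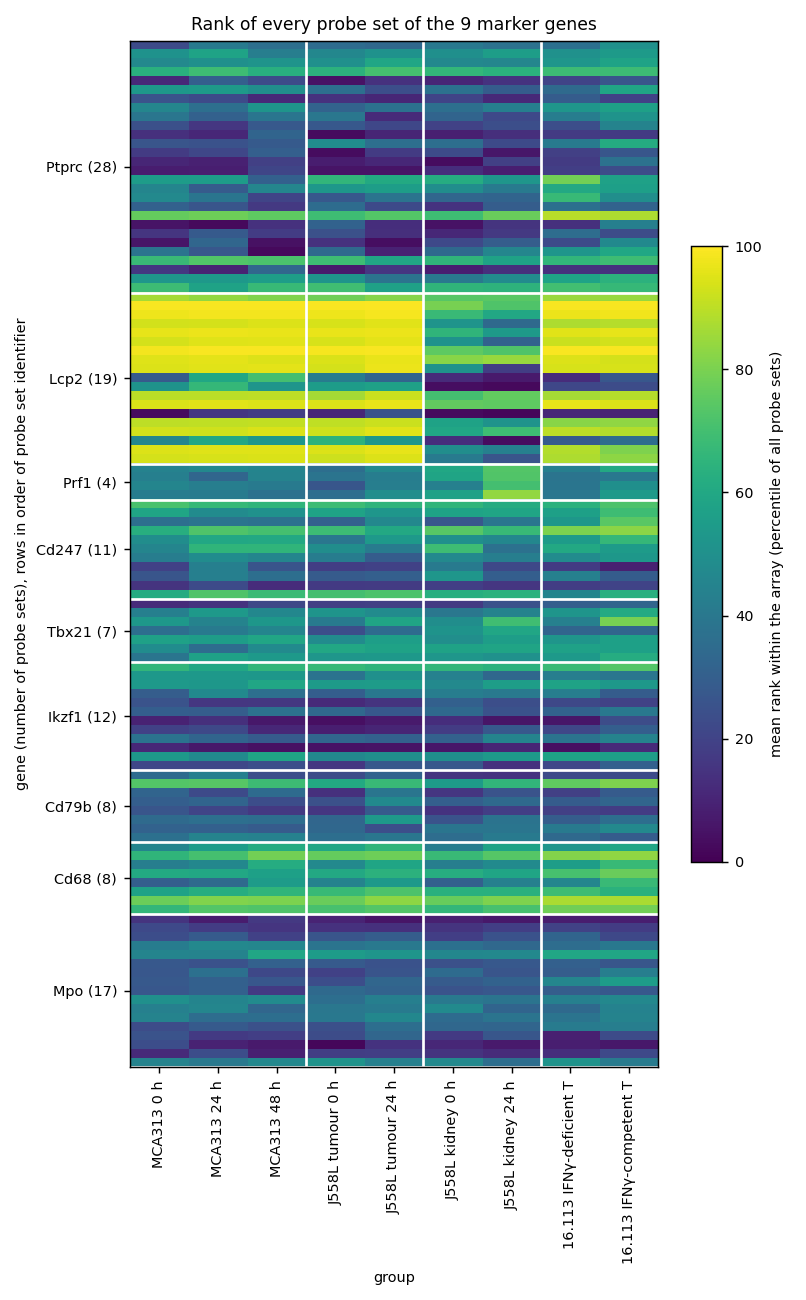
Mean rank within the array (percentile of all probe sets, colour) for each of the 114 probe sets (rows, grouped by gene) in the 9 groups (columns, divided by normalization set). The Lcp2 block is bright in every tumour group, with a median rank of 88.6 to 95.6, and dim in the kidney groups, at 57.5 and 51.4.

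Lcp2 stood near the top of every tumour array and far lower in kidney. Its brightest probe set, 17248383, read 12.45, 12.11 and 12.06 in uninduced MCA313 endothelium, 12.35 and 12.36 at 24 h, and 12.49 and 12.11 at 48 h. In J558L tumours it read 12.45 and 12.84 at 0 h and 13.07, 12.89 and 12.77 at 24 h. In 16.113 tumours the competent arrays read 11.71, 11.92 and 11.45, and the 5 deficient arrays 11.28 to 11.99 with a median of 11.67. Tumour arrays were thus tightly grouped, and no induced group stood clear of its control. The kidney arrays of the J558L-bearing mice read 10.25, 8.07 and 8.4 at 0 h and 8.66, 8.3 and 7.35 at 24 h. Replicate 1 of the kidney control was the highest of these 6. As ranks, the probe set lay at the 98.2 to 99.5 percentile on the 20 tumour arrays and at the 64.4 to 91.2 percentile on the 6 kidney arrays.

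Most of the other Lcp2 probe sets had the same order. For 14 of the 18 tested, the lowest rank on any tumour array was above the highest rank on any kidney array, against 1.79% of all 39400 probe sets tested. Among the 60 tested probe sets of the other 8 genes this held for 0. The reverse, every kidney array ranked above every tumour array, held for 1 of 4 Prf1 probe sets and for no probe set of the remaining genes. The share of all probe sets with the reverse order was not computed. The median rank over the 19 probe sets was 93.4, 93.9 and 94.7 in the MCA313 groups, 93.7 and 95.6 in the J558L tumour groups, 88.6 and 89 in the 16.113 groups, and 57.5 and 51.4 in kidney at 0 and 24 h. These ranks compare sets normalized separately and were given no test.

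The other genes of the leukocyte signalling list did not share this rank as a group. Of 14 such genes with a probe set, 3 were above the 90th percentile on every array of each tumour group, and 2 in each kidney group. The 2 others that were high are Srgn (serglycin, a proteoglycan of secretory granules), at group means of 12.8 to 13.69, and Inpp5d (the phosphatase SHIP1), at 11.82 to 13.26. Their mean rank was at the 99.1 percentile or above in all 9 groups, kidney included.

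Ptprc, the pan-leukocyte marker itself, had a moderate brightest probe set and mostly low others. Probe set 17227556 read 7.22, 8.64 and 8.37 in uninduced MCA313 endothelium, 7.82 and 8.5 at 24 h and 8.2 and 7.56 at 48 h. In J558L tumours it read 8.62 and 7.25, then 7.92, 8.17 and 8.69. In kidney it read 8.2, 7.76 and 7.46, then 8.44, 8.17 and 8.94. In 16.113 tumours the competent arrays read 9.31, 8.61 and 8.93 and the deficient arrays 8.59 to 9.83 with a median of 9.28. Every pair of groups compared overlapped. The probe set lay at the 61.4 to 93.4 percentile, and the 16.113 arrays held the upper end, at 85 or above. Over all 28 Ptprc probe sets the median rank was 23.2 to 51, and in each group 5 of 28 were above the median on all of its arrays, 3 of them on all 26 arrays.

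Cd68 was the other gene with most probe sets above the array median. Its brightest, 17264842, had group means of 8.2 to 9.32, and the median rank of its 8 probe sets ran from 59.2 to 72.4. Cd247 (17219020) had group means of 6.83 to 8.32 and Ikzf1 (17247337) of 6.51 to 7.73. For Cd79b, 17270839 had group means of 6.72 to 8.11 and was the only 1 of 8 above the median on all 26 arrays. Mpo (17254882) stayed at group means of 5.47 to 6.79, near or below the array median, and had the most probe sets that were never above it.

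**Figure D2:**
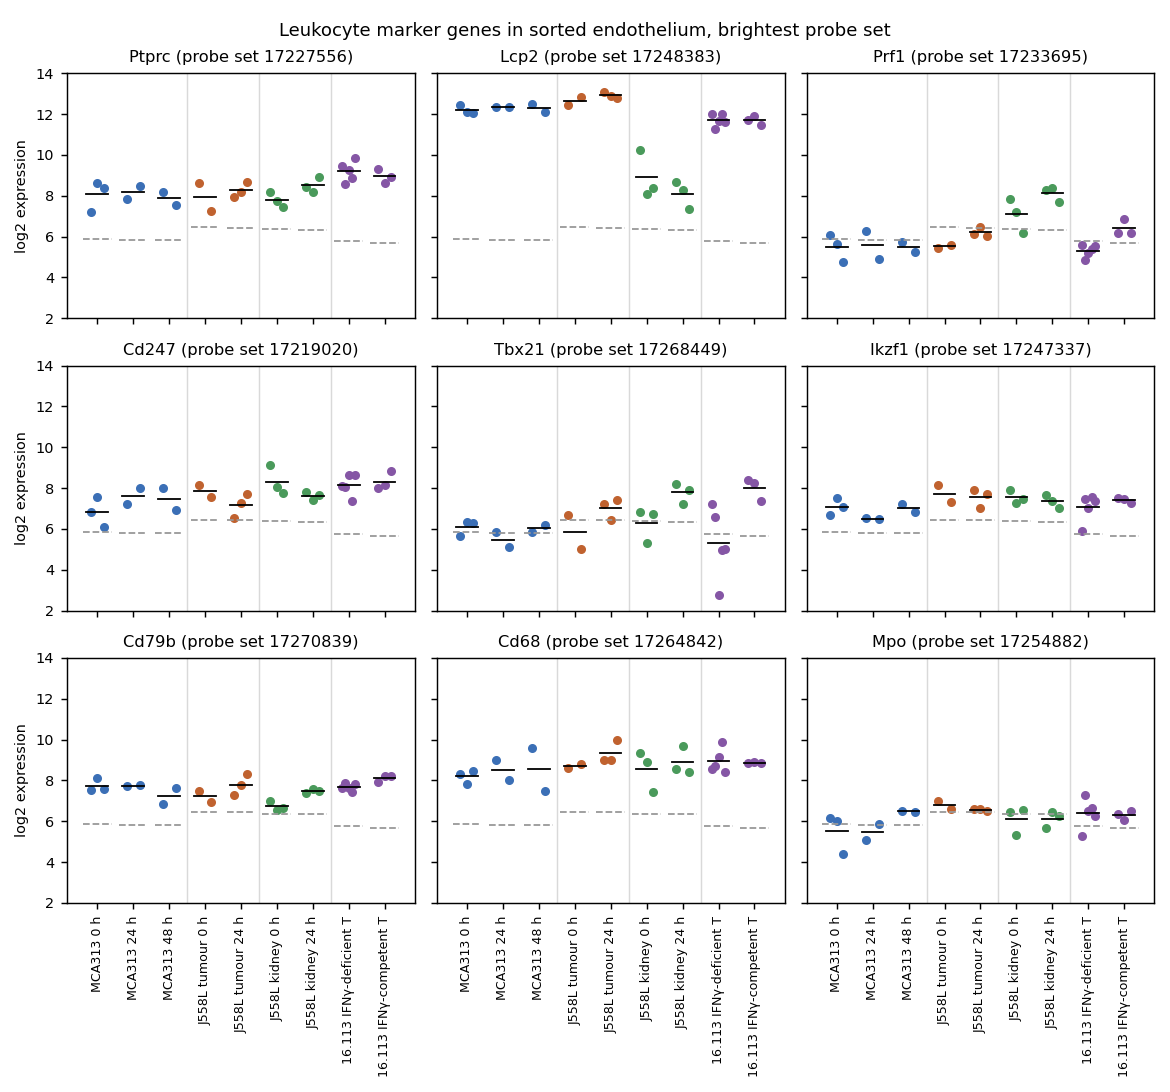
Log2 expression of the brightest probe set of each gene on each array (points), by group, with group means (black bars) and the mean array median of the group (dashed). Vertical lines separate the 4 sets normalized separately. Lcp2 reads 11.28 or more on tumour arrays and 10.25 or less on kidney arrays, while Mpo lies near the dashed line throughout.

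Changes with IFNγ were tested in 6 comparisons within sets and 2 comparisons between responses, with limma fitted to 4386 genes and Benjamini-Hochberg adjustment over all of them. All 9 genes passed the filter on low values. After 24 h of induction in MCA313 tumours, 0 of 9 were called at an adjusted p under 0.05, against 0.684% of all genes tested, and 0 had an unadjusted p under 0.05, against 10.9% of all genes. At 48 h 0 of 9 were called, against 1.37%, and again 0 passed unadjusted (12.8% of all genes). These comparisons share the uninduced arrays. From 24 to 48 h 0 were called (0.0684% of all genes) and 0 passed unadjusted (3.78%). In J558L tumours 0 were called (0.547%) and 0 passed unadjusted (8.14%). In kidney 0 were called (3.17%), with 2, Prf1 and Cd79b, at an unadjusted p under 0.05 (13.7% of all genes). In 16.113 tumours 1 of 9 was called, against 7.36%, with 2, Prf1 and Tbx21, at an unadjusted p under 0.05 (21.5% of all genes). The median change of the 9 genes was 0.08, -0.01, 0.32, 0.33 and 0.16 in MCA313 at 24 h and 48 h, J558L tumour, kidney and 16.113, beside medians of -0.01, -0.02, -0.01, 0.01 and -0.03 over all genes.

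**Figure D3:**
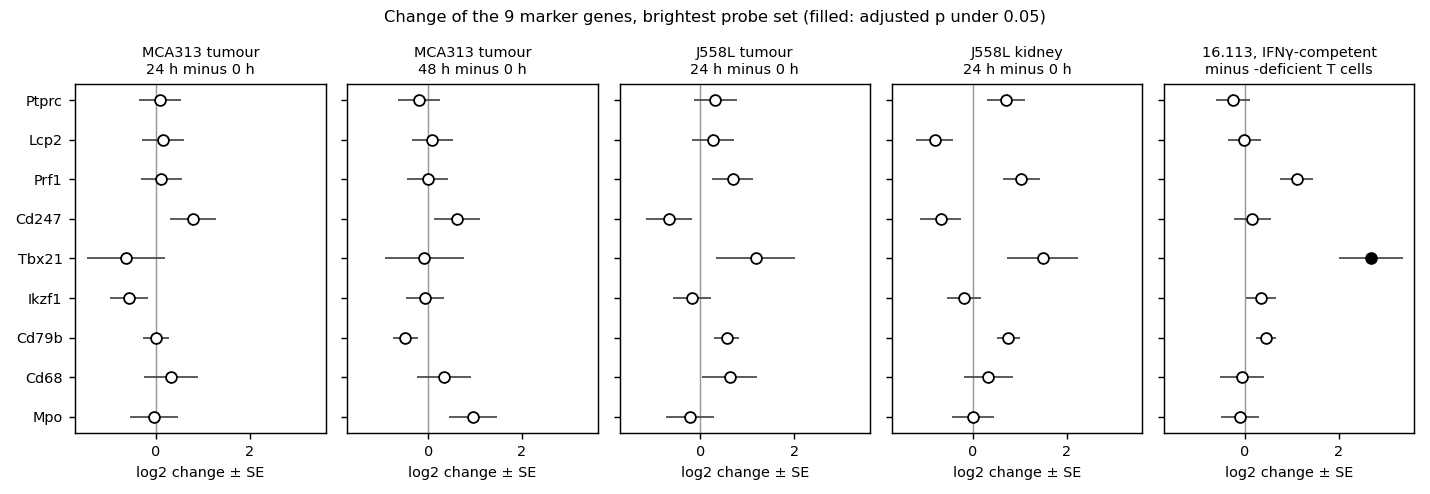
Log2 change with its standard error for the brightest probe set of each gene in 5 comparisons, filled where the limma adjusted p was under 0.05. Tbx21 in 16.113 tumours (2.69) is the only filled point.

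A second fit to the 39400 probe sets tested kept each probe set apart. It called 0 of the 78 tested probe sets of the 9 genes in MCA313 tumours at 24 h (0.160% of all), 0 at 48 h (0.322%), 0 from 24 to 48 h (0.0254%) and 0 in J558L tumours (0.142%). In kidney it called 3 of 78 (1.32% of all), 2 for Prf1 and 1 for Lcp2, and in 16.113 tumours 1 of 78 (4.04%), for Tbx21. An unadjusted p under 0.05 was reached by 5, 7, 4 and 2 of the 78 in the first 4 of these comparisons, where 9.25%, 10.4%, 5.11% and 5.94% of all probe sets did. It was reached by 12 in kidney (5 higher and 7 lower; 11.4% of all) and 11 in 16.113 (10 higher and 1 lower; 18.5% of all).

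Prf1 rose in kidney endothelium at 2 of its 4 probe sets. Probe set 17233698 read 6.53, 6.64 and 7.53 at 0 h and 9.25, 9.3 and 9.16 at 24 h, and 17233697 read 6.21, 5.07 and 6.5, then 7.71, 8.13 and 7.77. In both, every 24 h array was above every 0 h array. The share of all genes or probe sets whose groups separated, in either direction, was not computed for any comparison. Between groups this small, such separation can arise by chance. Here and below, groups that did not overlap are therefore a description and add no support to a change that was not called. The log2 changes were 2.34 ± 0.44 (SE, limma adjusted p = 0.00937, 5.05-fold) and 1.95 ± 0.41 (adjusted p = 0.0171, 3.86-fold), from 3 arrays against 3. The 0 h mean of 17233697, 5.92, was below the array median, so the size of its fold is uncertain. The brightest probe set over all arrays, 17233695, read 7.86, 7.22 and 6.2, then 8.29, 8.4 and 7.7, so its groups overlapped. Its change of 1.04 ± 0.39 was not called in the gene fit (adjusted p = 0.207), nor was 1.14 at 17233696 in the probe set fit (adjusted p = 0.193). All 4 were higher at 24 h, by a median of 1.54, and the mean over the 4 probe sets, fitted as the gene's value, was called at 1.62 (limma adjusted p = 0.000232). The call of 17233698 held without each kidney array in turn and was lost when the kidney arrays were fitted alone (adjusted p = 0.0899). That of 17233697 was lost there too (adjusted p = 0.162), and without control replicate 2 (1.52, adjusted p = 0.104), 24 h replicate 2 (1.82, adjusted p = 0.0891) or 24 h replicate 3 (2, adjusted p = 0.0530).

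In the tumours Prf1 was low. At 17233695 the J558L tumour arrays read 5.44 and 5.6 at 0 h and 6.14, 6.46 and 6.04 at 24 h, mostly below the array median. All 4 probe sets were higher at 24 h, and the change of 0.69 ± 0.44 was not called (adjusted p = 0.828). The difference between the tumour and kidney responses was -0.34 ± 0.59 in the gene fit (limma adjusted p = 0.999). All 4 probe sets had the smaller response in tumour, by -0.34 to -1.48. The difference was -1.48 ± 0.67 at 17233698 (unadjusted p = 0.0374, adjusted p = 1.00) and -0.88 ± 0.61 at 17233697 (adjusted p = 1.00), in a fit where 0.00508% of all probe sets were called. MCA313 arrays read 4.78 to 6.29 in the 3 groups, with changes of 0.11 ± 0.44 and -0.01 ± 0.44. In 16.113 tumours the competent arrays read 6.18, 6.87 and 6.18 and the deficient arrays 4.86 to 5.57 with a median of 5.38. The groups did not overlap, and the change of 1.1 ± 0.35 missed the threshold (adjusted p = 0.0629). It was called after quantile normalization of all arrays (1.2, adjusted p = 0.0376) and for the mean of the 4 probe sets (0.69, adjusted p = 0.0454). Without competent replicates 2 and 3, which leaves 1 competent array, the change was 0.87.

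Tbx21 was the gene called in 16.113 tumours. Probe set 17268449 read 8.4, 8.23 and 7.37 with competent T cells and 7.2, 6.59, 2.78, 4.97 and 5.01 with deficient T cells. The groups did not overlap, by a margin smaller than the spread within either group. The change was 2.69 ± 0.68 in the gene fit (limma adjusted p = 0.0169, 6.45-fold) and had an adjusted p of 0.0319 in the probe set fit. The deficient mean of 5.31 was below the array median, so the size of the fold is uncertain. Among the 7 Tbx21 probe sets 5 were higher, by a median over all 7 of 0.23, and the mean of the 7 rose by 0.56 (adjusted p = 0.0464). The call was lost without competent replicate 2 (2.57, adjusted p = 0.0570), with array weights (3.08, adjusted p = 0.0957) and with the 16.113 arrays fitted alone (adjusted p = 0.193). Without competent replicates 2 and 3 together, which leaves 1 competent array, the change was 3.09. In the probe set fit the call was lost without any single competent replicate, 1 (2.49, adjusted p = 0.0596), 2 (2.57, adjusted p = 0.0851) or 3 (3.01, adjusted p = 0.0600), and without deficient replicates 4 (2.6, adjusted p = 0.0580) or 5 (2.61, adjusted p = 0.0587).

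In kidney the same probe set read 6.85, 5.31 and 6.74 at 0 h and 8.21, 7.23 and 7.92 at 24 h, with no overlap and 6 of 7 probe sets higher. The change of 1.49 ± 0.76 was not called (adjusted p = 0.398). J558L tumour arrays read 6.67 and 5, then 7.2, 6.43 and 7.43, a change of 1.18 ± 0.84 (adjusted p = 0.91), and overlapped. MCA313 changes were -0.64 ± 0.84 at 24 h and -0.08 ± 0.84 at 48 h. A different probe set, 17268453, changed by 1.23 ± 0.26 at 24 h in MCA313 (adjusted p = 0.0605), and was called only with array weights.

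**Figure D4:**
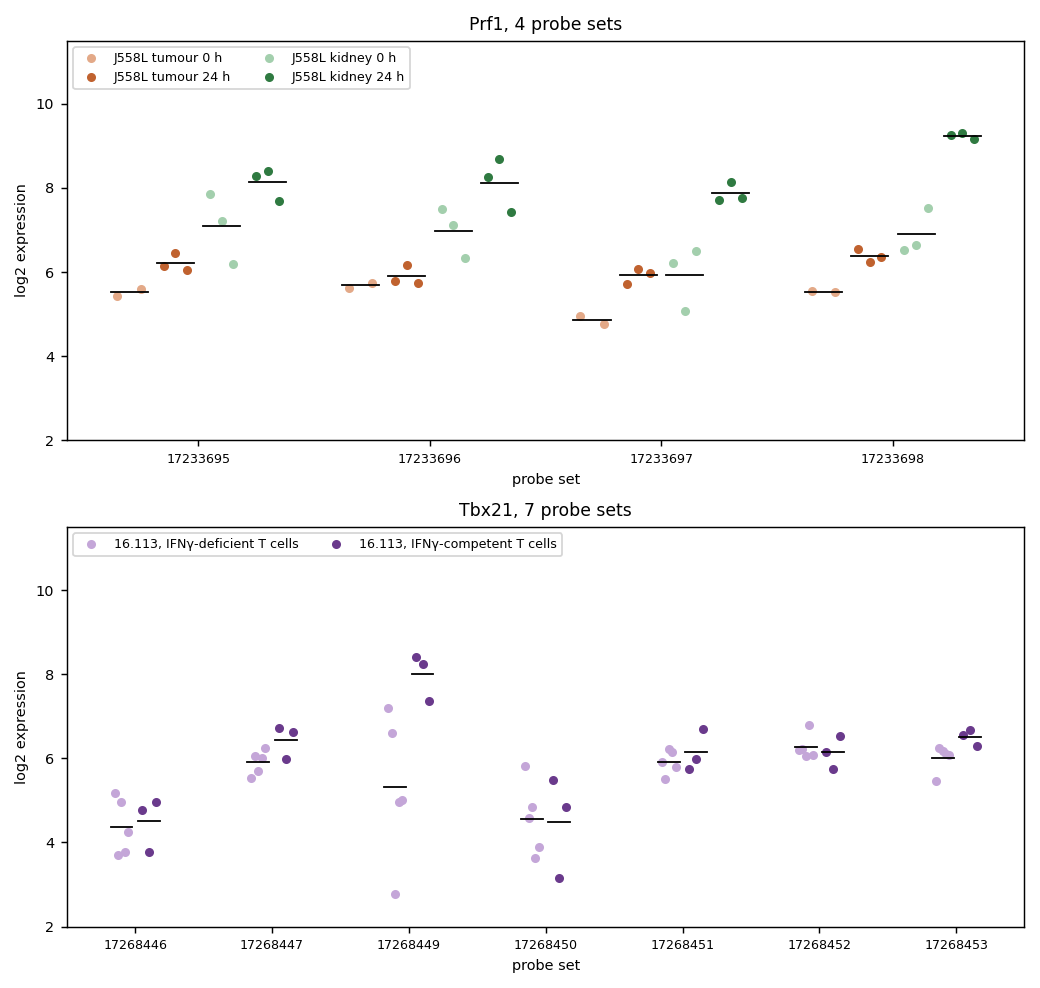
Log2 expression on each array (points, black bars for group means) at the 4 probe sets of Prf1 in J558L tumour and kidney endothelium at 0 and 24 h (top), and at the 7 probe sets of Tbx21 in 16.113 tumours with IFNγ-deficient or IFNγ-competent T cells (bottom). Prf1 probe set 17233698 separates the kidney groups (7.53 or less against 9.16 or more), and Tbx21 17268449 is the only Tbx21 probe set with a change as large as 2.69.

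A list of T and natural killer cell markers was read on the same arrays. It has 25 genes, of which 22 were tested, and Prf1, Tbx21 and Cd247 count among them. No mean without these 3 was computed, so the list mean does not show the other genes apart from them. The list's mean level per array was 6.94 to 7.27 at 0 h and 7.33 to 7.58 at 24 h in kidney, and 6.39 to 6.81 with deficient and 6.85 to 7.24 with competent T cells in 16.113, with no overlap in either. Competent replicate 1, the array kept when replicates 2 and 3 were left out, had the 7.24. In MCA313, where Prf1 and Tbx21 were not called, the mean level was 6.6 to 6.82 at 0 h, 6.99 to 7.1 at 24 h and 6.83 to 6.96 at 48 h, so the induced arrays did not overlap the uninduced ones there either. That mean includes Ctla4, the only list gene called there at either time. Median changes over the 22 were 0.13 at 24 h and -0.04 at 48 h, so the separation was not shared by the list as a whole at 48 h. In J558L tumours the mean level was 7.05 to 7.14, then 7.11 to 7.27, with overlap. In kidney 13 of the 22 were above the array median on every 0 h array and 15 on every 24 h array, and in 16.113 tumours 12 with deficient and 17 with competent T cells. The counts were 12, 15 and 16 in MCA313 at 0, 24 and 48 h, and 15 and 13 in J558L tumours. Being above the median on every array is easier in a group of fewer arrays. Outside kidney the induced or competent groups differed in size from their controls, and the larger group had the lower count each time. These counts therefore do not measure a difference in level. The kidney arrays came from Rag-/- mice, which lack mature T and B cells. In kidney 2 of 22 rose, Tcf7 (the transcription factor TCF-1) by 1.67 ± 0.35 and Skap1 (an adaptor of T cell receptor signalling) by 1.97 ± 0.39, and 0 fell, against 3.17% of all genes called. In 16.113 tumours 3 of 22 rose and 0 fell: Tbx21, Skap1 by 1.66 ± 0.35 and Slamf6 (a lymphocyte surface receptor) by 1.13 ± 0.31, against 7.36% of all genes called. Without competent replicates 2 and 3 the changes of Skap1 and Slamf6 were 1.6 and 1.02, with 1 competent array left. Skap1 was higher at 11 of 20 and 12 of 20 probe sets in these comparisons, and Slamf6 at 6 of 11. Median changes over the 22 were 0.12 and 0.23, beside 0.01 and -0.03 over all genes. Whether other cells in the sort had a part in the Prf1 and Tbx21 changes was not tested.

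Lcp2 in kidney had 16 of 19 probe sets lower at 24 h, by a median of -0.41. The brightest changed by -0.81 ± 0.39 (adjusted p = 0.371), and by -0.14 without control replicate 1 (adjusted p = 0.938). The called probe set, 17248392, read 8.67, 6.35 and 4.75 at 0 h and 2.84, 4.35 and 4.63 at 24 h, and fell by 2.65 on the log2 scale (SE 0.64, limma adjusted p = 0.0434). Every 24 h array was below every 0 h array, and the 24 h mean of 3.94 was below the array median, so its size is uncertain. Without control replicate 1 the change was -1.61 (adjusted p = 0.183). It also lost the call without control replicate 2 (-2.77, adjusted p = 0.0925) and without 24 h replicates 1 (-2.1, adjusted p = 0.191), 2 (-2.86, adjusted p = 0.0891) or 3 (-3, adjusted p = 0.0598). The J558L tumour change was 0.27 ± 0.44, and the difference between tumour and kidney responses was 1.08 ± 0.59 (limma adjusted p = 0.999). In MCA313 Lcp2 changed by 0.15 ± 0.44 and 0.09 ± 0.44, and in 16.113 by -0.01 ± 0.35.

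The B cell receptor gene Cd79b read 6.98, 6.55 and 6.64 in kidney of the Rag-/- mice at 0 h and 7.39, 7.57 and 7.5 at 24 h. The change of 0.76 ± 0.25 was not called (limma adjusted p = 0.111). These groups did not overlap and 7 of 8 probe sets were higher, with no share over all genes computed for either. Of the 11 tested genes of the B and plasma cell list, 0 were called in kidney, with 2 at an unadjusted p under 0.05. Irf4, a transcription factor of lymphocytes and plasma cells, was the list member that rose in tumours, by 3.39 ± 0.52 and 3.04 ± 0.52 in MCA313 at 24 h and 48 h, 2.9 ± 0.52 in J558L and 2.51 ± 0.42 in 16.113, where 0.684%, 1.37%, 0.547% and 7.36% of all genes were called. Ighm, the heavy chain of IgM, stayed at group means of 5.71 to 6.51, near the array median. In 16.113, Sdc1 (the plasma cell marker CD138, also on other cells) fell by 0.94 on the log2 scale. Without competent replicates 2 and 3, Irf4 changed by 2.3 and Sdc1 by -0.72, with 1 competent array left.

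Changes of Ptprc at its brightest probe set ran from -0.28 to 0.71 over the 6 comparisons, none called. Its largest, in kidney, was 0.71 ± 0.4 (adjusted p = 0.478), with 14 of 28 probe sets higher. In 16.113 the brightest changed by -0.26 ± 0.36 (limma adjusted p = 0.735), while 19 of 28 probe sets were higher with competent T cells. The median change over the 28 there was 0.26, and their median rank was 51 with competent and 38.9 with deficient T cells. No share over all genes was computed for these counts, and 9 of the 28 were too low to be tested. Of the 14 leukocyte signalling genes tested, 0 were called in any of the 6 comparisons, with medians of -0.17 to 0.11 and 0 to 3 genes at an unadjusted p under 0.05. Cd247 changed by -0.68 to 0.79, none called. Its 24 h responses in MCA313 (0.79 ± 0.49) and J558L tumours (-0.67 ± 0.49) had a difference of 1.47 ± 0.69 (unadjusted p = 0.0473, limma adjusted p = 0.999). That was the only 1 of the 9 genes at an unadjusted p under 0.05 between these responses, where 2.99% of all genes were. Between them 0 of 9 were called, against 0% of all genes. For the difference between J558L tumour and kidney 0 of 9 were called (0.0228% of all genes), with 0 at an unadjusted p under 0.05 (4.79% of all genes).

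Ikzf1 changed by -0.58 to 0.51 and was called in none of the 6 comparisons. Cd68 in MCA313 at 48 h had 7 of 8 probe sets higher, by a median of 0.85, with no share over all genes computed. Its brightest read 9.58 and 7.49 against 8.32, 7.82 and 8.46, a change of 0.34 ± 0.58 (limma adjusted p = 0.89). Larger changes, none called, were 1.22 ± 0.35 at 17264837 (limma adjusted p = 0.149), 1.32 ± 0.38 at 17264838 (0.147) and 1.7 ± 0.74 at 17264840 (0.41). All of these had an unadjusted p under 0.05, where 10.4% of all probe sets did. Of the 21 tested genes of the monocyte, macrophage and dendritic cell list, 1 rose in MCA313 at each time, Fcgr4 (an Fc receptor for IgG), by 3.67 ± 0.73 and 3.33 ± 0.73 (0.684% and 1.37% of all genes were called), and 0 in the other comparisons, where 0 or 1 had an unadjusted p under 0.05. On the T cell list 1 of 22 rose in MCA313 at each time, Ctla4 (an inhibitory receptor of T cells), by 3.73 ± 0.58 and 4.71 ± 0.58, beside median changes of 0.13 and -0.04 over the 22. Mpo at 48 h in MCA313 read 6.49 and 6.46 against 6.16, 6.02 and 4.38, a change of 0.95 ± 0.51 (adjusted p = 0.461) with 6 of 17 probe sets higher. By limma, 0 of the 9 granulocyte genes tested were called in the 6 comparisons, with 1 at an unadjusted p under 0.05 in 16.113 and 0 in the other 5.

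Across the 26 arrays, with each gene centred within its set, the 9 genes varied largely apart from each other. Pearson r over the 36 pairs ran from -0.22 to 0.53 with a median of 0.05, and the highest were Tbx21 with Cd79b (0.53), Prf1 with Tbx21 (0.47) and Prf1 with Cd79b (0.46). The genes most like each by the same measure were Pik3ip1 (0.79), Stxbp5 (0.74) and Serpina3f (0.70) for Tbx21, B4galt3 (0.78), Snora33 (0.77) and Zfp281 (0.74) for Prf1, and 4933439C10Rik (0.80), Mir1933 (0.75) and Trmt11 (0.69) for Lcp2. For Ptprc they were Cyria (0.85), Mir3473c (0.73) and Tsen15 (0.73), for Cd247 Rgsl1 (0.72), Calm4 (0.70) and Ikbke (0.67), and for Ikzf1 Fbll1 (0.67), Ptprr (0.66) and D630024D03Rik (0.63). For Cd79b they were Kif18b (0.78), 1700011B04Rik (0.77) and Gm11190 (0.77), for Cd68 Chrnb1 (0.62), Polg2 (0.60) and Ahsa2 (0.60), and for Mpo Lrrc46 (0.71), Gm7138 (0.68) and Il5 (0.66). These arrays share groups and normalization, and the values are descriptions of the highest among 4386 genes.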

How the data were processed

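The values are log2 expression per probe set, deposited by the authors for 26 arrays. Per the submitters' processing notes, the tools used were Affymetrix Expression Console and limma, with no version given. The normalization and genome build are not given in the sources used here. Of 65535 probe sets, 53857 had a single gene symbol in the platform annotation (older symbols were updated through RefSeq), 766 several and 10912 none. Probe sets that Cd247 shares with another gene (8) were not used.

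All 9 group means were fitted together with limma 3.58.1 in R 4.3.3. Each gene was represented by its probe set with the highest mean over all arrays, kept if above the array median in at least 2 arrays, and p-values were Benjamini-Hochberg adjusted over 4386 genes at 0.05. A second fit took 39400 single-symbol probe sets, and the pipeline was tested on simulated data. Groups of 2 to 5 arrays limit the precision.

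The genes and marker lists were chosen with earlier results of these data known. Named genes are the 9 genes, listed genes past the test (at most 4 per list and comparison), Pecam1, and the 3 genes most alike to each. Some other listed genes (Srgn, Inpp5d, Ighm) were picked after seeing their values. The alternatives were fits with no filter, a filter at the 75th percentile, quantile normalization, the mean of a gene's probe sets, another variance prior, array weights, the replicate block, each set alone and leaving out each array. Leaving out 16.113 competent arrays 2 and 3 together, and the difference between tumour and kidney responses at each Prf1 probe set, were chosen after seeing the data. Other motif searches are not reported here.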

Additional observations from a re-analysis of the deposited data

How the results depend on the processing

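No called change of the 9 genes or their probe sets reversed under the alternatives run. Of 71 member results that were not called, 1003 of 1006 alternative values were also not called, 3 were called, and 95 had the other sign. In 16.113 tumours the count of called genes among the 9 was 1, and became 2 (Prf1 and Tbx21) after quantile normalization and for the mean of a gene's probe sets, and 0 with array weights and with the 16.113 arrays alone. Leaving out single arrays gave 0 to 1. The count of called probe sets there was 1, became 2 without the filter, and 0 with array weights and with the 16.113 arrays alone, and ran from 0 to 1 without single arrays. Without competent replicate 1 the probe set called was Cd247 17219018 in place of that of Tbx21. In kidney the mean of a gene's probe sets called 1 of 9 (Prf1) in place of 0. The 3 called kidney probe sets became 0 with the kidney arrays alone and 1 to 4 without single arrays. Array weights called 1 probe set, Tbx21 17268453, in MCA313 at 24 h. Same-numbered arrays did not deviate together (r -0.14 to 0.11 over 14 pairs, 1 over 0.1), so the numbers were not taken as pairs. With the replicate block the count of called genes in 16.113 stayed 1 and that of called kidney probe sets was 2, as Lcp2 17248392 missed the threshold (adjusted p = 0.0507). Over all genes, the counts called in MCA313 at 24 h and 48 h, J558L tumour, kidney and 16.113 were 30, 60, 24, 139 and 323. They were 1, 4, 18, 67 and 34 with each set alone, 60, 90, 127, 242 and 77 with array weights, and 140, 174, 109, 277 and 444 for the mean of a gene's probe sets. The values came without detection calls, which limits what changes at low probe sets show.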
